A study of Mus musculus with 4 samples.

Results

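The RNA profile of mouse embryonic stem (ES) cells was described here against a common mouse reference RNA. Each of 4 arrays carried RNA of ES cells labelled with Cy3 and Universal Mouse Reference RNA labelled with Cy5, so that each probe gave a ratio of ES cell signal to reference signal within the array. The members are the probes whose Cy3 and Cy5 signals were both flagged well above background on all 4 arrays, which were 15414 of the 25030 probes in the deposited expression table. The value of a probe is the log2 ratio of Cy3 to Cy5, in which 1 is a 2-fold higher signal in ES cells and -1 a 2-fold lower signal, and it was summarised by its mean, SD and range over the 4 arrays (n = 4 throughout unless another n is given).

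The cells were B6R(5), a male ES cell line of C57BL/6 origin, grown without feeder cells on gelatin. They were plated for 24 h and then kept for 48 h in medium with 0.2% DMSO, which all 4 cultures received, either alone as the control or as the solvent of the FGFR inhibitor PD173074, the MEK inhibitor PD98059 or the GSK inhibitor BIO. There was 1 culture and 1 array for each of these 4 conditions, all from a single cell line. The reference is labelled as the universal pool, a commercial mixture of equal parts of RNA from 11 mouse cell lines of embryo, embryo fibroblast, kidney, liver, alveolar macrophage, B lymphocyte, T lymphocyte, mammary gland, myoblast, skin and testis origin. A low ratio is therefore a statement about that pool as much as about the ES cells. The study's methods describe, for arrays of organs, a reference that also held RNA of MC1 cells, an ES cell line, and say of these cultures only that RNA was processed in the way described. If MC1 RNA was present here, the ratios of ES cell genes would be understated, and the labels do not settle it. The dyes were not swapped and the reference has no replicate of its own, so a preference of a probe for a dye and a difference in RNA cannot be told apart, and no p-value is given. The SD and range over the 4 cultures hold the effects of the inhibitors as well as error. In pooled RNA, fewer cells of a type and less RNA per cell cannot be told apart.

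ES cells derive from the inner cell mass of the blastocyst and can give rise to all lineages of the embryo. Their state is maintained by a network of transcription factors, among them Tcfcp2l1, Prdm14, Gbx2 and Nr5a2, and they divide rapidly with a short G1 phase. FGFR and MEK signalling favours their exit from this state, and inhibition of GSK, which stabilises beta-catenin, favours its maintenance.

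Each array probe is a DNA oligonucleotide of 60 bases. The last 30 bases are given for the probes of the genes on which the results below turn, 5′ to 3′ as the scanner files hold them, so that the measured stretch of each transcript is known. Capitals mark the letters AATAAA, the canonical polyadenylation signal, where they fall in these bases. The first 6 genes were higher in ES cells and the last 4 were higher in the reference.
Gbx2: aacaaaaccaccactgtactctgccgcctt
Tcfcp2l1: gctttgatgtgactctttcttgaggtgttc
Prdm14: aaagcctttgcatctcatgctgcccacgac
Nr5a2: ctgtgaatcaaaggctgtatgaatcaaagg
Trap1a: ttccacgaccctaatttcctggtgtctata
Hdac1: cctaggaccccttttcaggcttgggtaata
Col3a1: acaaaaaccacatccatgtgttcatcttgt
Col6a3: ggagcttggaggtgaaattcaatgtttaaa
Ptprc: aagaataacaatgtgtaccattctggaatg
Ncf4: gacactctaccttttggattcAATAAAcca

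The letters AATAAA were searched over the full 60 bases of every probe. They occurred in the given orientation in 7.90% of the 25030 deposited probes and on the other strand in 3.62%, so the probe letters read more often as the transcript than as its complement. Among members the share in the given orientation was 8.99%. It was 5.68% of the probes higher in ES cells and 12.3% of those lower. The median GC content of the probe was 45.0% for members higher in ES cells and 43.3% for those lower, against 45.0% for all members. Both are descriptions of the probes, and their part in the ratios was not tested.

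The ES cell profile differed widely from the reference and was shared by the 4 cultures. A ratio of at least 2-fold on every array, the rule for a call, was reached by 3466 members in the direction of higher signal in ES cells (22.5% of members) and by 3072 in the direction of lower signal (19.9%). At 4-fold on every array 1310 members (8.5%) were higher and 1536 (9.96%) lower. At 10-fold the counts were 384 (2.49%) higher and 634 (4.11%) lower, and at 50-fold they were 34 (0.221%) and 98 (0.636%), so that ratios this strong were counted more often on the side of the reference. The Cy5 signal of members with high ratios rose with their Cy3 signal, as measured below, and its part in this asymmetry was not tested. The highest mean ratio was 7.94 and the lowest -10.03, both of probes that have no symbol here. A further 1444 members were 2-fold higher on some arrays but not all, and 1252 were 2-fold lower on some but not all. The weakest array of the members nearest the threshold was at 1.001 just inside and 0.9996 just outside it for higher signal, and at -1.0001 and -0.9995 for lower signal.

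**Figure D1:**
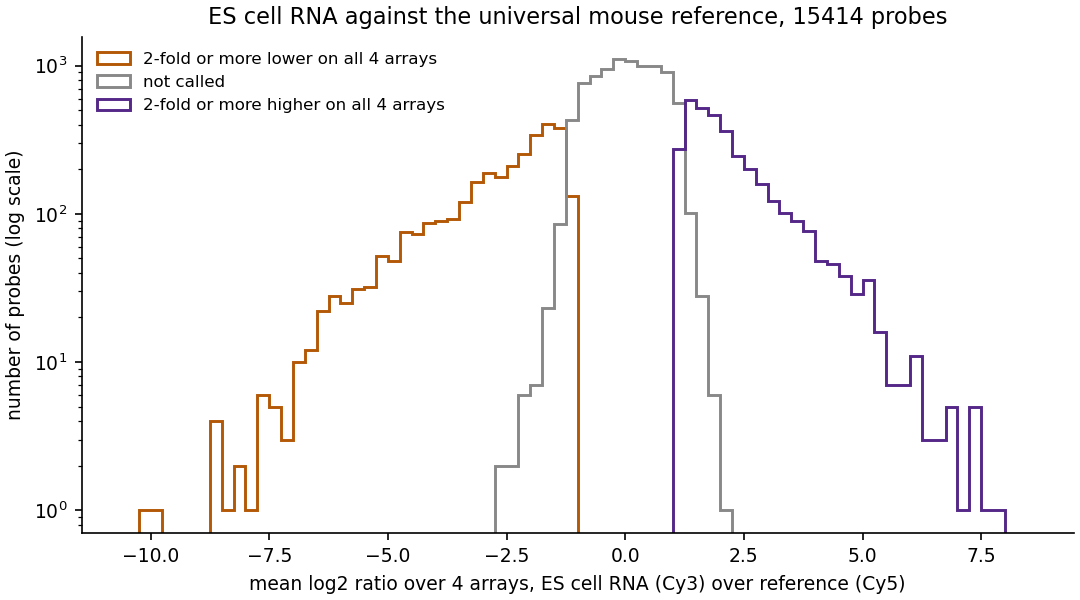
Histogram of the mean log2 ratio of ES cell RNA (Cy3) over reference RNA (Cy5) for the 15414 members in bins of 0.25, with the number of probes on a log scale and an outline for each call. The outline of the 3072 lower members reaches to -10.03, while that of the 3466 higher members ends at 7.94.

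The arrays resembled each other closely. The medians of the members' log2 ratios were between 0.09 and 0.11 on the 4 arrays and their SD between 1.85 and 1.89. Across the 15414 members, which share the reference and the slide and are not independent replicates, Pearson's r between pairs of arrays lay between 0.973 for the control and GSK inhibitor arrays and 0.990 for the control and MEK inhibitor arrays. The median range of a member over the 4 arrays was 0.37, and 95% of members had a range of at most 1.15. For scale, an Agilent control probe with 32 spots had an SD of the log2 ratio among spots of 0.15 to 0.26 within each array, and another with 10 spots had 0.06 to 0.12.

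Symbols were available for 4093 members, of which 1675 were clone names such as those of the RIKEN collection, and the other 2418 were gene symbols. Of the members with a symbol, 795 were higher in ES cells (19.4%) and 584 lower (14.3%), and their median log2 ratio was 0.19 against 0.10 for all members. Counts within the gene lists below are read against these 2 shares. The symbols held are not a random sample of the genes.

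The regulators of the ES cell state that had a symbol were all higher in ES cells than in the reference. Of the 24 genes of this list 5 had a symbol, and 4 of them were members with ratios of at least 2-fold on every array (median log2 ratio 3.23). Gbx2, a homeobox factor that supports self-renewal, had log2 ratios of 4.63, 4.44, 4.52 and 4.40 in the control, FGFR inhibitor, MEK inhibitor and GSK inhibitor cultures, a mean of 4.50 ± 0.10 (SD) or 22.6-fold. Tcfcp2l1, a factor of the naive ES cell network, had 3.14, 3.53, 3.48 and 3.46 in the same order. Prdm14, which guards the ES cell state and germ cell fate, had 3.00, 3.54, 2.93 and 2.74. The range of the ratio over the 4 cultures was 0.23 for Gbx2, 0.39 for Tcfcp2l1 and 0.80 for Prdm14, and every culture was at least 2.74 above the reference on the log2 scale. Zfp281, a zinc finger factor of ES cells that many other cells express as well, was at 1.08, 1.04, 1.00 and 1.02, barely over the 2-fold line. With each array centred on its median its mean was 0.93 and the call was lost, so that 3 of the 4 members kept theirs.

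Nr5a2, an orphan nuclear receptor that acts on the Pou5f1 gene, had no measurable ratio because the reference gave no signal well above background for it on any array. Its Cy3 signal was 408 in the control culture, 604 with the FGFR inhibitor, 492 with the MEK inhibitor and 799 with the GSK inhibitor, all well above background. It was at least 30.4-fold higher in ES cells than in the reference. Foxh1, the partner of Smad proteins in activin and Nodal signalling, was also chosen as an ES cell marker, and its ratios of 0.01, -0.03, -0.07 and -0.06 showed no difference from the reference. Of the 10 ES cell markers the other 5 (Pou5f1, Nanog, Sox2, Zfp42 and Dppa5a) were not analysed here, since no probe was paired with those symbols.

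The highest ratios among members with a gene symbol included few textbook ES cell genes. Pou5f1, Nanog, Sox2, Zfp42 and Dppa5a could not appear among them, since no probe was paired with those symbols. The 15 highest were Zdbf2, Taf7, Aard, Npl, Trap1a, Zfp286, B3gnt7, Gbx2, Dusp27, Sox17, Msc, Hdac1, Fzd5, Acaa1b and Cdk5r2, with mean log2 ratios from 5.33 to 3.89. Among all members, with or without a gene symbol, Zdbf2 ranked only 54 and Cdk5r2 295. Zdbf2, an imprinted gene expressed from the paternal allele, was at 5.33, 5.53, 5.31 and 5.13 on the control, FGFR, MEK and GSK inhibitor arrays, a mean of 40.1-fold, although its Cy5 signal was only 19.9 to 35.2. Taf7, a subunit of the general transcription factor TFIID, was at 5.08, 5.29, 5.03 and 5.51. Trap1a, which encodes the tumour rejection antigen P1A and is silent in most adult tissues, was at 4.61, 4.75, 4.69 and 4.62. The 4 cultures lay within 0.48 of each other for Taf7, within 0.40 for Zdbf2 and within 0.14 for Trap1a.

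Other genes among the highest belong to different functions. Npl, a lyase of sialic acid breakdown, had a mean of 5.00 ± 0.11 (SD), and B3gnt7, a glycosyltransferase that extends sugar chains, had 4.50 ± 0.13. Fzd5, a receptor of Wnt ligands, had 4.10 ± 0.09 at low signals, with Cy3 between 376 and 551 and Cy5 between 21.0 and 33.0. Hdac1, the catalytic subunit of several repressor complexes, had 3.92, 4.32, 4.01 and 4.17 in the order of cultures given above. Its high ratio stood apart from Hdac3 (0.94) and Hdac4 (0.66), other deacetylases measured here.

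**Figure D2:**
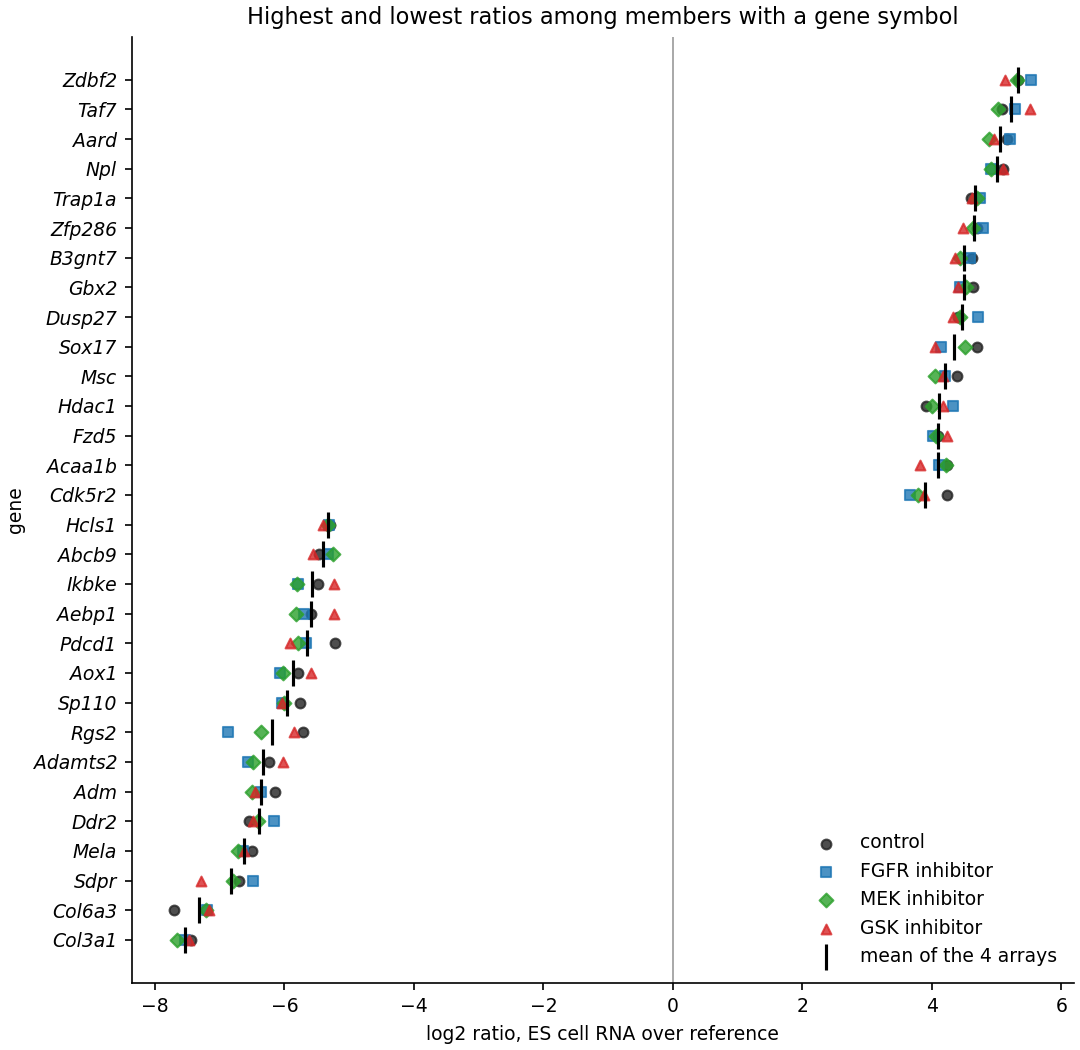
Log2 ratios of ES cell RNA over reference RNA on each array for the 15 members with the highest and the 15 with the lowest mean among members with a gene symbol. Symbols and colours mark the 4 cultures and the vertical bar marks the mean. For Rgs2 the 4 arrays spread over 1.17, the widest of these 30 genes.

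Of the 15 lowest gene symbols 6 belong to the list of extracellular matrix and mesenchymal genes. Of the 20 members of this list 14 were lower in ES cells and 3 higher (median log2 ratio -3.33). Col3a1, a fibrillar collagen of fibroblasts, had log2 ratios of -7.44, -7.54, -7.67 and -7.47 in the control, FGFR, MEK and GSK inhibitor cultures, a signal 185-fold higher in the reference. Col6a3, a chain of collagen VI, had -7.70, -7.20, -7.22 and -7.17. The collagen receptor Ddr2 had a mean of -6.40 ± 0.17 (SD), the procollagen protease Adamts2 -6.33 ± 0.25, and the caveolar protein Sdpr -6.82 ± 0.34. For these 5 genes the culture nearest the reference was still at -6.02 or lower. The others of the 15 lowest gene symbols that belong to no blood or liver list were Mela at -6.62, the vasodilator peptide gene Adm at -6.37, the G-protein regulator Rgs2 at -6.20, the nuclear body protein gene Sp110 at -5.96, Aebp1 at -5.59, the kinase gene Ikbke at -5.57 and the peptide transporter gene Abcb9 at -5.41.

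Not all matrix genes were low in ES cells. Lamc1, the laminin gamma chain found in the first basement membranes of the embryo, was at 3.23, 3.16, 2.89 and 2.35. The heparan sulfatase Sulf1 was at 1.79, 1.46, 1.39 and 1.27. Fn1, encoding fibronectin, was only 2.77-fold lower than in the reference, with ratios of -1.77, -1.36, -1.37 and -1.39. A further 4 matrix genes, Adamts1, Dpt, Col5a2 and Adam12, were above background in the reference on all arrays and in ES cells on none. They were at least 25.5-, 6.56-, 52.7- and 1.42-fold higher in the reference, in that order.

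Genes of lymphocytes and macrophages were mostly lower in ES cells. In the lymphocyte list 9 of 13 members were lower and 1 higher (median -3.73), and in the macrophage list 11 of 15 were lower and 1 higher (median -3.40). The T cell checkpoint receptor Pdcd1 had ratios of -5.22, -5.67, -5.80 and -5.92, and Hcls1, an actin-binding protein of blood cells, had -5.29, -5.31, -5.32 and -5.40. Ncf4, a subunit of the phagocyte oxidase, had -4.84, -5.05, -5.16 and -5.11, and Trem2, a receptor of macrophages, had -4.55, -4.63, -4.85 and -4.63. These 4 genes were 50.3-, 40.3-, 32.9- and 25.4-fold higher in the reference, in that order.

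For several blood cell genes only the reference gave a signal. Ptprc, the pan-leukocyte antigen CD45, had Cy5 signals of 1876, 2083, 2167 and 1864 on the 4 arrays and Cy3 signals of 5.6 to 13.2, below the flag for background, and was at least 79.0-fold higher in the reference. Cd28, a costimulatory receptor of T cells, was at least 15.7-fold higher. The exceptions in the other direction were Stat4, a transducer of interleukin signals, with ratios of 1.60, 2.17, 1.87 and 1.06, whose call was lost with median centring, and Acp5, the tartrate-resistant acid phosphatase, with 1.98, 2.31, 2.27 and 2.37.

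Muscle and liver genes gave a mixed picture. Of 10 muscle members 3 were lower and 0 higher (median -0.88), with Fhl2 at -5.17 ± 0.29 (SD) and the cardiac troponin Tnnt2 at -4.40 ± 0.13. Des, the muscle intermediate filament, lay on either side of the reference, at 0.45, -0.38, 0.26 and -0.33. Of 9 hepatocyte members 3 were lower and 1 higher (median -1.14). Aox1, an aldehyde oxidase of liver, had -5.87 ± 0.22, whereas Apoa2, an apolipoprotein of high-density lipoprotein, was higher in ES cells with 1.87, 1.43, 1.90 and 2.03. Further hepatocyte genes, among them C4bp, Ugt1a2, Fmo1 and Acsm3, were above background on all arrays in the reference alone. These 4 were at least 10.8-, 1.37-, 4.88- and 1.16-fold higher in the reference, in that order.

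The markers of other cell types that could be present in an ES cell culture were checked as lists. Of the 7 fibroblast markers 4 were above background in Cy3 on all arrays. The summed Cy3 signal of the 7 was 21908 to 32072 over the arrays against 256487 to 285507 in Cy5. In the control Col3a1, Col6a3 and Ddr2 had Cy3 signals of only 690, 223 and 164. Most of the Cy3 sum thus came from the other fibroblast markers, Fn1 among them. For the 4 lymphocyte markers the sums were 236 to 280 in Cy3 and 2676 to 3111 in Cy5, and Ptprc, Cd28 and Cd247 were not above background in Cy3 on any array. For the 5 macrophage markers they were 1550 to 1705 and 26209 to 28590. The 5 muscle markers summed to 549 to 641 in Cy3 and 839 to 931 in Cy5, with 0 called. The 4 hepatocyte markers summed to 3755 to 6109 in Cy3 and 1538 to 1685 in Cy5. Apoa2 was the 1 hepatocyte marker called higher, and 2 of the 4 were above background in Cy3 on all arrays. The part of such cells in the ratios was not tested. The 5 ES cell markers with a probe summed to 40360 to 72781 in Cy3 and to 6654 to 9419 in Cy5.

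Genes used in cell division were higher in ES cells or near the reference, and 0 of the members of the DNA replication and mitosis lists were called lower. Of 30 members of the DNA replication list 10 were higher (median log2 ratio 0.84), and of 39 members of the mitosis list 13 were higher (median 0.77). Timeless, a component of the replication fork, had the highest ratio of the replication list with 2.39, 2.45, 2.30 and 2.21, followed by Rpa2, a subunit of the single-strand binding complex, with 2.14, 2.20, 2.09 and 2.14. The clamp loader subunit Rfc3 was the lowest with a mean of -0.31. Of the mitotic genes the kinesin Kif20a was the highest with 1.85, 1.99, 1.89 and 2.08, and the kinase gene Pkmyt1 the lowest with a mean of -0.69. The cell lines of the reference also divide, which limits what such a ratio can show.

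Chromatin regulators had the second highest median of the 18 lists, after the pluripotency regulators. Of 36 members 15 were higher in ES cells and 0 lower, with a median log2 ratio of 0.90 and 32 means above 0. After Hdac1 the highest were Jarid1b, a demethylase of histone H3, with 2.61, 2.82, 2.66 and 2.62, Myst1, an acetyltransferase of histone H4, with 2.48, 2.49, 2.48 and 2.27, and the remodelling ATPase Chd4 with 2.31, 2.16, 2.14 and 2.05. The range over the 4 cultures was at most 0.26 for these 3 genes. Aebp2, a cofactor of Polycomb, had the lowest mean in this list, -0.67, with arrays from -1.27 to -0.05.

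**Figure D3:**
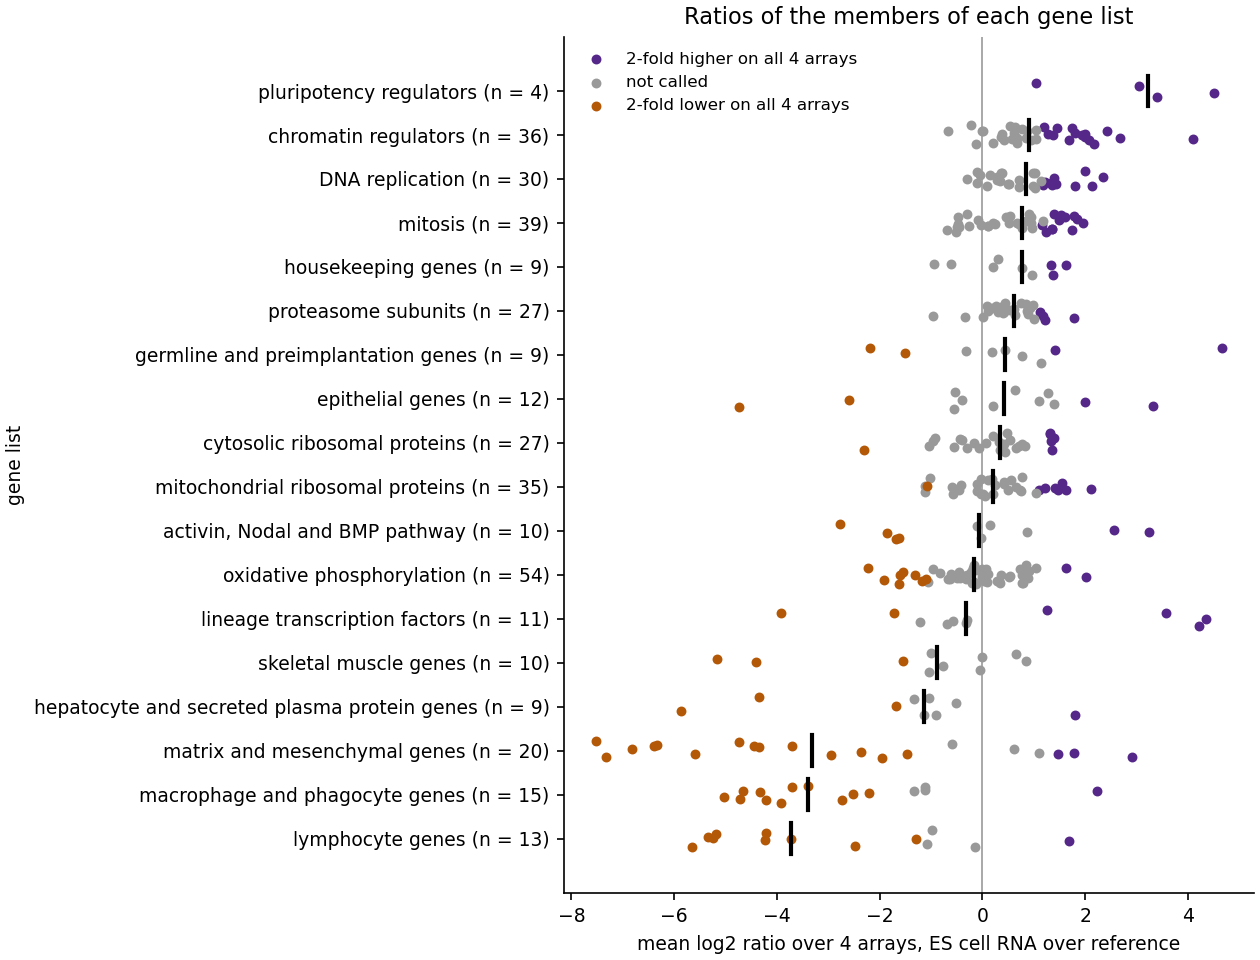
Mean log2 ratios over the 4 arrays of the members of 18 gene lists, ordered by the list median (vertical bar). Each point is a member, coloured by its call, and n is the number of members. The medians run from 3.23 for pluripotency regulators to -3.73 for lymphocyte genes.

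The lists of proteasome, ribosomal and oxidative phosphorylation genes had medians nearer to the reference than the lists of chromatin and cell division genes. Proteasome subunits had a median of 0.60, with 4 of 27 members higher and 0 lower (2 higher and 1 lower with median centring), and Psmd11, a subunit of the regulatory lid, was the highest at 1.84, 1.75, 1.82 and 1.72. Cytosolic ribosomal proteins had a median of 0.34 with 5 of 27 higher and 1 lower, and mitochondrial ribosomal proteins a median of 0.20 with 7 of 35 higher and 1 lower (6 and 4 with median centring). Rpl41, the exception on the low side, was at -2.06, -2.38, -2.28 and -2.50. Ribosomal protein genes have many near-identical pseudogene copies, so the ratio of any 1 of these probes may hold signal from several loci.

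Genes of oxidative phosphorylation had a median below the reference, -0.16, with 2 of 54 members higher and 8 lower. The share of lower members, 14.8%, was close to the 14.3% of all members with a symbol. The share of higher members, 3.70%, was below the 19.4% of all members with a symbol. The lowest were Ndufa6 of complex I at -2.32, -2.11, -2.16 and -2.32 and Uqcrh of complex III at -2.15, -1.94, -1.99 and -1.60. The 2 higher members were Ndufv1 of complex I at 1.98, 2.01, 2.07 and 2.00 and the flavoprotein Sdha of complex II at 1.54, 1.60, 1.60 and 1.72. Subunits of the same complex thus lay on opposite sides of the reference by 4.25 on the log2 scale for complex I. Of 9 housekeeping members 3 were higher and 0 lower, with a median of 0.76 and 7 means above 0. Their means ran from -0.95 for Actb, encoding beta-actin, with arrays at -0.93, -1.10, -0.75 and -1.03, to 1.62 for Sdha.

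Receptors and ligands of the activin, Nodal and BMP pathway split. Of 10 members 2 were higher and 4 lower (median -0.07). The activin type II receptor Acvr2b was at 3.39, 3.33, 3.18 and 3.06, and Inhbb, which encodes the beta B subunit of activin, at 3.16, 2.24, 3.49 and 1.35. The type I receptors Acvr1 and Acvrl1 had means of -1.87 ± 0.21 (SD) and -1.68 ± 0.14, and the BMP receptor Bmpr2 had -1.63 ± 0.11. Inha, the alpha subunit of inhibin, was lowest with -2.63, -2.84, -2.27 and -3.37.

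Transcription factors of other lineages were heterogeneous, with 4 of 11 members higher and 2 lower. Sox17, a factor of endoderm, was at 4.70, 4.14, 4.51 and 4.05, with Cy3 signals of 488 to 671 and Cy5 signals of 23.6 to 29.5. Msc, encoding the repressor musculin, was at 4.39, 4.20, 4.05 and 4.17, and Sox13 at 3.46, 3.56, 3.46 and 3.84. En1, a homeobox factor of the midbrain, was at -4.13, -4.35, -4.19 and -2.98, with the GSK inhibitor culture nearest to the reference. A further 8 of the 23 genes of this list were above background only on some arrays in at least 1 channel.

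Germline and epithelial genes had shares of higher and lower members near those of all members with a symbol. Of 9 germline members 2 were higher, Trap1a and Utp14b, and 2 lower, Pou5f2 at -2.19 ± 0.34 (SD) and Khdc1b at -1.51 ± 0.30. Boll, a regulator of translation in germ cells, had Cy3 signals of 161 to 246 with no Cy5 signal above background and was at least 11.1-fold higher in ES cells. Of 12 epithelial members 2 were higher and 2 lower. Lad1, an anchoring filament protein, was higher at 3.32 ± 0.06. Pkp1, a desmosome protein of skin, at -4.73 ± 0.22, and Sprr1a, a precursor of the cornified envelope, at -2.60 ± 0.16, were lower.

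Many probes gave a signal in a single channel and have only a bound. There were 476 probes above background in Cy3 on all arrays and in Cy5 on none, and 1272 with the reverse pattern. The bound sets the mean signal of the bright channel against the higher of the dim signal and the lowest signal called well above background in that channel, and it is open to dye bias because dyes were not swapped. A bound of at least 10-fold was reached by 88 of the 476 and by 203 of the 1272. On the ES cell side the 8 largest bounds of probes with a symbol were those of 4930504H06Rik (at least 82.2-fold), 4931407G18Rik (70.0), 4930558C23Rik (44.9), A830018L16Rik (38.0), 2410141K09Rik (31.0), Nr5a2 (30.4), 4930558O21Rik (27.8) and 9130007G19Rik (24.8), 7 of them clone names. On the side of the reference they were 1110018M03Rik (at least 230.2-fold), C130026I21Rik (223), Mpp4 (89.3), Ptprc (79.0), Col5a2 (52.7), 2010007H06Rik (50.3), Defb41 (36.0) and Mr1 (32.5). Neither channel was above background on any array for 4609 probes, and the remaining 3259 were above it on some arrays only.

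The Cy5 signal comes from the same reference on each array, yet for genes with high ratios it moved with the Cy3 signal. Gbx2 had Cy3 signals of 8670, 1806, 6080 and 8704 in the control, FGFR, MEK and GSK inhibitor cultures, and Cy5 signals of 350, 83.3, 264 and 412 on the same arrays. Its ES cell signal thus differed 4.82-fold between the lowest and the highest culture, while its log2 ratio differed by only 0.23, because Cy5 stayed at 4.04% to 4.73% of Cy3. Msc followed the same pattern, with Cy3 at 2301, 5124, 3573 and 1274 and Cy5 at 110, 279, 215 and 70.5. For Inhbb, with a lower ratio, Cy3 differed 5.31-fold while Cy5 differed 1.21-fold between the same arrays.

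This movement was measured over all members whose Cy3 signal differed by at least 1 on the log2 scale between arrays. Between the array with the lowest and the array with the highest Cy3 signal, Cy5 rose by a median of 0.83 for the 148 such members with a mean ratio over 10-fold higher in ES cells, where the median change of Cy3 was 1.38. For the 476 such members within 2-fold of the reference the median change of Cy5 was 0.13, and for the 120 over 10-fold lower in ES cells it was 0.02. Cy5 was higher on the array with the higher Cy3 in 93.2% of the first group, 76.9% of the second and 60.8% of the third. The quartiles of the Cy5 change in the first group were 0.44 and 1.26, so its size varied between members. For many high ratios, though not all, the mean over the 4 cultures is therefore not a ratio to a fixed reference level. The small range of Gbx2, Msc or Dusp27 over the cultures does not show that the ES cell signal was the same in them. Of 140 members with Cy3 of at least 5000 on all arrays and a mean ratio over 10-fold, Cy5 was 0.409% to 9.99% of Cy3, with a median of 4.80%. The upper end of these shares is set by the choice of ratios over 10-fold. A further 1 probe with Cy3 of at least 5000 on all arrays had Cy5 above background on none, at 0.035% of Cy3.

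**Figure D4:**
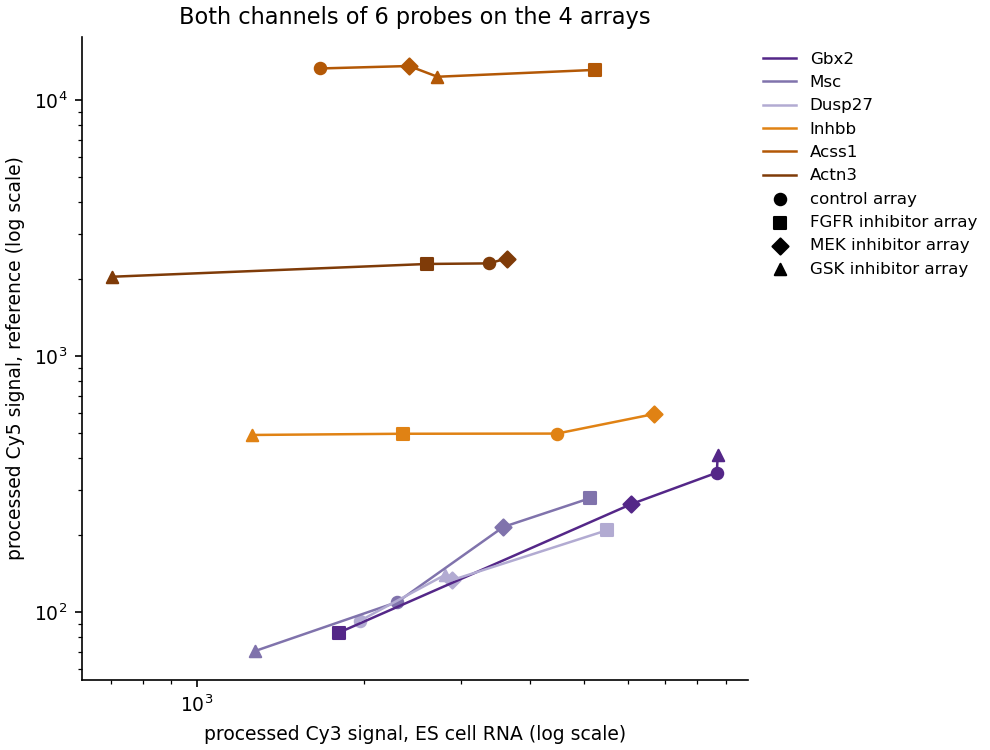
Processed Cy3 signal of ES cell RNA against processed Cy5 signal of reference RNA, both on log scales, for 6 probes on the 4 arrays, with a line joining the arrays of each gene in order of Cy3. For Gbx2, Msc and Dusp27 the Cy5 signal climbs with the Cy3 signal, whereas for Inhbb, Acss1 and Actn3 it stays nearly level, from 492 to 594 for Inhbb.

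The cultures departed from the common profile for a part of the members. The log2 ratio had a range of at least 1 over the 4 arrays for 1185 members (7.69%), while the Cy3 signal alone had such a range for 1458 (9.46%). Among the 1185 members the array furthest from the median of the others was that of the GSK inhibitor for 512 of them, of the FGFR inhibitor for 365, of the control for 247 and of the MEK inhibitor for 61. With 1 array for each condition, an effect of an inhibitor and the error of an array cannot be told apart. Only 4 members were 2-fold higher on 1 array and 2-fold lower on another. Aox3, the member of these 4 with a symbol, an aldehyde oxidase named after its values were seen, was at -1.13, 1.27, 0.14 and 1.87 in the control, FGFR, MEK and GSK inhibitor cultures.

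Of members with a symbol and a Cy3 signal of at least 500 on every array, 1700097N02Rik, 2310007H09Rik, Inhbb, Actn3, 5730437N04Rik, 6330407J23Rik, Acss1 and 1190002H23Rik had the 8 largest ranges. Actn3, an alpha-actinin of fast muscle fibres, was near the reference in the control, FGFR and MEK inhibitor cultures with 0.55, 0.19 and 0.59, and was at -1.53 with the GSK inhibitor. Acss1, a mitochondrial acetyl-CoA synthetase, was below the reference in all cultures, with -2.99 in the control and -1.32 with the FGFR inhibitor. For 1700097N02Rik the GSK inhibitor culture was at 2.84 and the others between 0.38 and 0.98. The GSK inhibitor culture lay outside the other 3 by more than their own spread in 4 of these 8 genes, and the FGFR inhibitor culture did so in 2, Acss1 and 1190002H23Rik. All 8 were chosen for their large range.

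**Figure D5:**
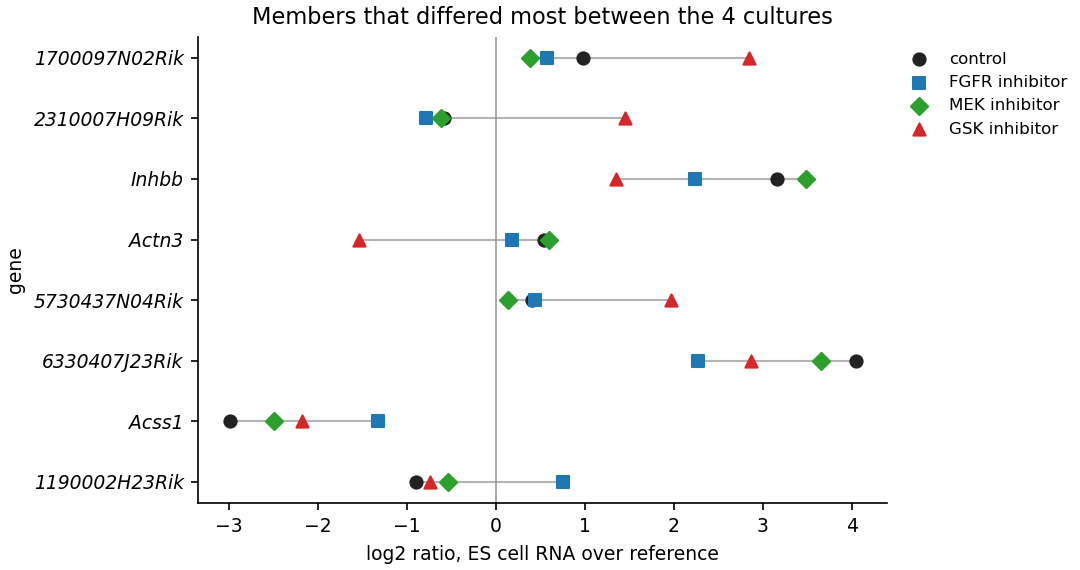
Log2 ratios of ES cell RNA over reference RNA in each culture for 8 members. They had the largest range over the arrays among members with a symbol and a Cy3 signal of at least 500 on every array. Symbols and colours mark the cultures and the grey line joins the lowest and the highest. The range was 2.46 for 1700097N02Rik and 1.66 for 1190002H23Rik.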

How the data were processed

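RNA of 4 ES cell cultures was hybridised with a reference RNA to 4 two-colour Agilent 44K mouse arrays of 43451 spots on a single slide. The authors scanned the arrays with Agilent Feature Extraction (version 9.5.1.1 per the file headers), which gave processed Cy3 and Cy5 signal intensities and their log10 ratio, Cy5 over Cy3. They deposited these scanner files and a table of log10 values for 25030 probes. Among members the table equals the log10 ratio with its sign reversed plus a constant for each probe, to within 0.00055 on the log2 scale. Its column medians were 2.25 to 2.26. The table was matched to spots by feature number.

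The value used was the sign-reversed deposited log10 ratio divided by log10 of 2, a log2 ratio of Cy3 to Cy5. Its direction rests on the dye labels. No normalization was added. Members were chosen by the flags for signal well above background in both channels on all arrays. No member spot was saturated and 5 spots carried an outlier flag and were kept. All per-sample columns mapped to a sample.

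A member was called at 2-fold or more on each of 4 arrays. No test was run, because there is 1 array for each condition and a single reference without a dye swap. Named genes were the 15 highest and 15 lowest called means with a gene symbol, the highest, lowest and called members of each list, the 8 largest ranges at a Cy3 signal of at least 500, and the 8 largest bounds in each direction. In lists with many called members examples are given, and a few genes are not reported here. Members and lists were chosen with earlier results of these data known. Symbols came from tables of the study that pair probe names with symbols, of which only part was used here, and probes without a symbol are unnamed here. The labels name the universal reference alone, and the methods name an admixture of MC1 RNA for organ arrays. Inhibitor doses are left out because the sources disagree on the unit. The probes' genome positions were not used.

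Alternatives used limma 3.58.1 in R 4.3.3 for normexp background correction and loess. The call rule was tested on simulated data. Python 3.11.15, numpy 2.4.6 and pandas 2.3.3 were used. For arrays, their number limits the precision.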

Additional observations from a re-analysis of the deposited data

How the results depend on the processing

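The 3466 members higher and the 3072 lower in ES cells changed with the threshold, the probes tested and the normalization. At 4-fold on every array 1310 were higher and 1536 lower. Over every probe of the array with both channels above background, 24689 of them, 5789 (23.4%) were higher and 4358 (17.7%) lower. With no filter on background 4629 of 25030 probes (18.5%) were higher and 4719 (18.9%) lower. Leaving out each array in turn gave 3523 to 3631 higher and 3117 to 3264 lower members. Under a rule that asks for every array, leaving 1 out can only keep or add calls. These counts therefore cannot show that a call is stable. Background correction by normexp with an offset of 50 together with loess gave 2407 (15.6%) higher and 2854 (18.5%) lower, of which 2404 and 2703 were also called in the main values. Loess without background subtraction gave 2461 and 2939, and median centring of the main values gave 3179 and 3318. The control array alone gave 4199 higher and 3750 lower, which by the same rule hold all the main calls. Among probes with both signals at least 100, a filter chosen after the data were seen, 2652 of 12176 were higher and 2378 lower. Median centring moved the median of all members by -0.10 and normexp with an offset of 16 together with loess by -0.12 on the log2 scale, so list medians near 0 hold only relative to that shift. Centring took the higher calls from 4 to 2 of 27 proteasome subunits and from 1 to 0 of 13 lymphocyte members, and the lower calls from 1 to 4 of 35 mitochondrial ribosomal proteins and from 1 to 2 of 27 cytosolic ones. It took the higher calls of the DNA replication list from 10 to 8, of mitosis from 13 to 12 and of chromatin regulators from 15 to 14, and the lower calls of oxidative phosphorylation from 8 to 10. The medians of all 18 lists kept their sign under the background, centring, leave-one-out and control-alone settings, although 16 of them moved by more than the SD of the 4 array medians under normexp with an offset of 50 together with loess and 16 under loess without background subtraction. Of 390 single genes up to 15 changed sign under a setting, and 0 of those that were called did. That 0 was fixed by the call rule for the leave-one-out, control-alone and centring settings, so only the background settings bear on it. No paired analysis was possible because there is a single array for every condition, so a fit with the replicate number as a block could not be made. All arrays lie on 1 slide, so a slide block was not run. Dim signals limit the ratios of some probes. The lowest Cy5 signal well above background was 17.4 to 19.4 over the arrays and the lowest Cy3 signal 23.6 to 28.7.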

Other observations

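Some other families of genes were grouped by name after their values were seen, and their counts are descriptions, to be read against the 19.4% of members with a symbol that were higher and the 14.3% that were lower. Of 15 aminoacyl-tRNA synthetases, which load amino acids onto tRNA, 8 were at least 2-fold higher in ES cells on every array and 0 lower, with a median log2 ratio of 1.48 and means from -0.06 for Rars to 2.46 for Aars2. Of 22 subunits of translation initiation factors (Eif genes) 10 were higher and 0 lower, with a median of 1.03 and the highest mean, 2.29, for Eif4e2. Of 9 nucleoporins, the proteins of the nuclear pore, 5 were higher and 0 lower, with a median of 1.18. Of 8 subunits of the Cct chaperonin, which folds actin and tubulin, 3 were higher and 0 lower, with a median of 1.02 and means from -0.41 for Cct7 to 2.02 for Cct3. The 14 Mediator subunits had a median of 0.31 with 3 higher, and 8 subunits of the vacuolar proton pump had a median of 0.13 with 0 called in either direction. Septins, cytoskeletal GTPases, spread widely, from -3.68 for Sept5 to 3.16 for Sept3, with 2 of 10 higher and 2 lower. Other families with lower members included the Adamts proteases, with 1 of 6 higher, 3 lower and a median of -0.40. Among regulators of G-protein signalling 0 of 3 were higher and 2 lower, with a median of -5.18. Among interleukins and their receptors 0 of 5 were higher and 2 lower. The median of this last family was 0.49, above the 0.19 of all members with a symbol.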
